A study of Mus musculus with 6 samples.

Results

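The miR-29 family was measured by 3 assays, mmu-miR-29a, mmu-miR-29b and mmu-miR-29c, in whole aortas from 6 female Apoe-/- mice. The members were chosen by their names without an asterisk, and they were 3 of 596 mouse miRNA assays on quantitative real-time PCR (qRT-PCR) cards. All mice carried the VE-Cadherin-CreERT2 transgene, a tamoxifen-inducible Cre recombinase driven by a promoter of endothelial cells (ECs). In 3 mice the Dicer1 alleles were flox/flox (EC-Dicerflox), and 3 littermates had the WT/WT alleles (EC-DicerWT). Both groups received tamoxifen on 5 days (2 mg per 20 g body weight) and, from 1 week after the last injection at an age of 6-8 weeks, 12 weeks of a high-fat diet that held 0.15% cholesterol beside 21% fat and 19.5% casein. The comparison asks how the family responds when ECs lose Dicer, which releases mature miRNAs from hairpin precursors. The promoter directs Cre to ECs, whereas the RNA came from the whole vessel wall, so that every value includes RNA of smooth muscle cells, fibroblasts and other cells. In such bulk samples, fewer cells of a type and less RNA per cell cannot be told apart.

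A miRNA guides Argonaute proteins to mRNAs that pair with its seed, the bases near its 5′ end, and lowers the output of these mRNAs. The miR-29 family is known for repressing a group of extracellular matrix genes, among them fibrillar collagens, elastin and fibrillin. It is often reduced in fibrotic tissue by transforming growth factor-β signalling, and in the aortic wall its inhibition is known to increase matrix production.

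The members differ only outside the seed. In the RefSeq sequences (GRCm38.p6), the names without an arm were taken as the 3p arms, and all 3 members matched. The mature sequences are printed 5′ to 3′ with the seed, bases 2 to 8, in capitals, since the shared seed defines the family.

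mmu-miR-29a-3p: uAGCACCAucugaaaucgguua

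mmu-miR-29b-3p: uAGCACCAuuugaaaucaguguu

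mmu-miR-29c-3p: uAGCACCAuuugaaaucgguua

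Of 1679 mature mouse sequences, 3 had this seed (0.179%), namely those of the 3 members. Counting positions from 1 at the 5′ end, miR-29a and miR-29c differed by the substitution C10U alone and were identical at 21 of 22 positions. MiR-29c and miR-29b differed by G18A, U21G and A22U, and miR-29b was longer by 1 base. The last bases of miR-29b, positions 18 to 23, read AGUGUU, a motif known to direct miR-29b into the nucleus. Among the 1679 mature sequences, 2 ended in these letters (0.119%), miR-29b and miR-92b-5p, and 12 held them at any position (0.715%). How far the assays for miR-29a and miR-29c tell a single base apart was not tested.

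The family is encoded by 4 hairpins in a pair of loci. Mir29a and Mir29b-1 lie on the minus strand of chromosome 6, with 275 bases between the hairpins, and the mature miR-29a lies at chr6:31062673-31062694. The annotation has no gene over these hairpins and no further gene within 10 kb. Mir29b-2 and Mir29c lie on the plus strand of chromosome 1 with 426 bases between them, inside the span of the lncRNA gene A330023F24Rik, and the mature miR-29c lies at chr1:195037600-195037621. The mature miR-29b has the same sequence at chr6:31063025-31063047 and chr1:195037091-195037113, so its assay sums the output of both loci, whereas miR-29a and miR-29c each come from 1 of them.

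No member of the family differed between the groups beyond the spread between mice. The cycle threshold (Ct) is the PCR cycle at which the signal crosses a set level, and a Ct of 40 stands for an undetected assay. A lower Ct means more RNA, and 1 cycle equals 1 log2 unit if every cycle doubles the product, which was not tested here. All members were detected in all 6 aortas. Of the 394 miRNA assays detected in all aortas, miR-29a had the 17th lowest mean Ct (17.8), miR-29c the 72nd (21.5) and miR-29b the 102nd (22.8). Assays differ in efficiency, and these ranks are therefore of assays rather than of molecules.

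MiR-29a had a Ct of 17.59, 17.99 and 18.06 in the EC-Dicerflox aortas and of 17.50, 17.60 and 18.07 in the EC-DicerWT aortas. For miR-29c the Ct was 21.45, 21.67 and 21.68 in EC-Dicerflox and 21.04, 21.38 and 21.77 in EC-DicerWT aortas. MiR-29b had a Ct of 22.98, 22.89 and 23.32 in EC-Dicerflox and of 22.46, 22.49 and 22.88 in EC-DicerWT aortas. Before normalisation, the groups thus overlapped for miR-29a and miR-29c. MiR-29b came later in each EC-Dicerflox aorta than in any EC-DicerWT aorta, with 0.013 cycles between the closest aortas. This held for 38 of the 439 tested miRNA assays (8.66%), those detected in at least 3 aortas.

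The level was the mean Ct of 5 control RNAs minus the Ct of the miRNA, in log2 units. The reference Ct lay between 19.44 and 20.36 in the EC-Dicerflox and between 19.45 and 20.17 in the EC-DicerWT aortas, with a difference of 0.16 cycles (P = 0.7, exact two-sided permutation test).

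The level of miR-29a was 1.85, 1.88 and 2.29 in the EC-Dicerflox aortas and 2.07, 1.85 and 2.10 in the EC-DicerWT aortas. The lowest values of both groups lay side by side, and the EC-Dicerflox group held the highest one. The means of 3 aortas were 2.01 ± 0.25 (SD) for EC-Dicerflox and 2.01 ± 0.14 (SD) for EC-DicerWT. The change was 0.0027 ± 0.23 (SE) with a 95% confidence interval from -0.58 to 0.58, or from 67.0% to 149.9% of the EC-DicerWT level (limma, adjusted P of 0.99).

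The level of miR-29c was -2.01, -1.80 and -1.33 in the EC-Dicerflox aortas and -1.47, -1.93 and -1.60 in the EC-DicerWT aortas. Both the lowest and the highest aorta were EC-Dicerflox, so the EC-DicerWT values lay within the range of the other group. The mean was -1.71 ± 0.35 (SD, n = 3) against -1.67 ± 0.24 (SD, n = 3). The change was -0.0447 ± 0.28 (SE) with an interval from -0.75 to 0.66, or from 59.4% to 158% of the EC-DicerWT level (limma, adjusted P of 0.99).

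MiR-29b had a level of -3.54, -3.02 and -2.97 in the EC-Dicerflox aortas and of -2.89, -3.05 and -2.71 in the EC-DicerWT aortas. After normalisation the groups overlapped, since EC-Dicerflox replicates 2 and 3 lay above EC-DicerWT replicate 2, and EC-Dicerflox replicate 1 lay below all other aortas. The means of 3 aortas were -3.17 ± 0.32 (SD) for EC-Dicerflox and -2.88 ± 0.17 (SD) for EC-DicerWT. MiR-29b thus changed by -0.30 ± 0.26 (SE), to 81.5% of its EC-DicerWT level, with an interval from -0.94 to 0.35 or from 52.0% to 128% (limma, adjusted P of 0.99, unadjusted P of 0.30). Without EC-Dicerflox replicate 1 the change of miR-29b was -0.11.

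**Figure D1:**
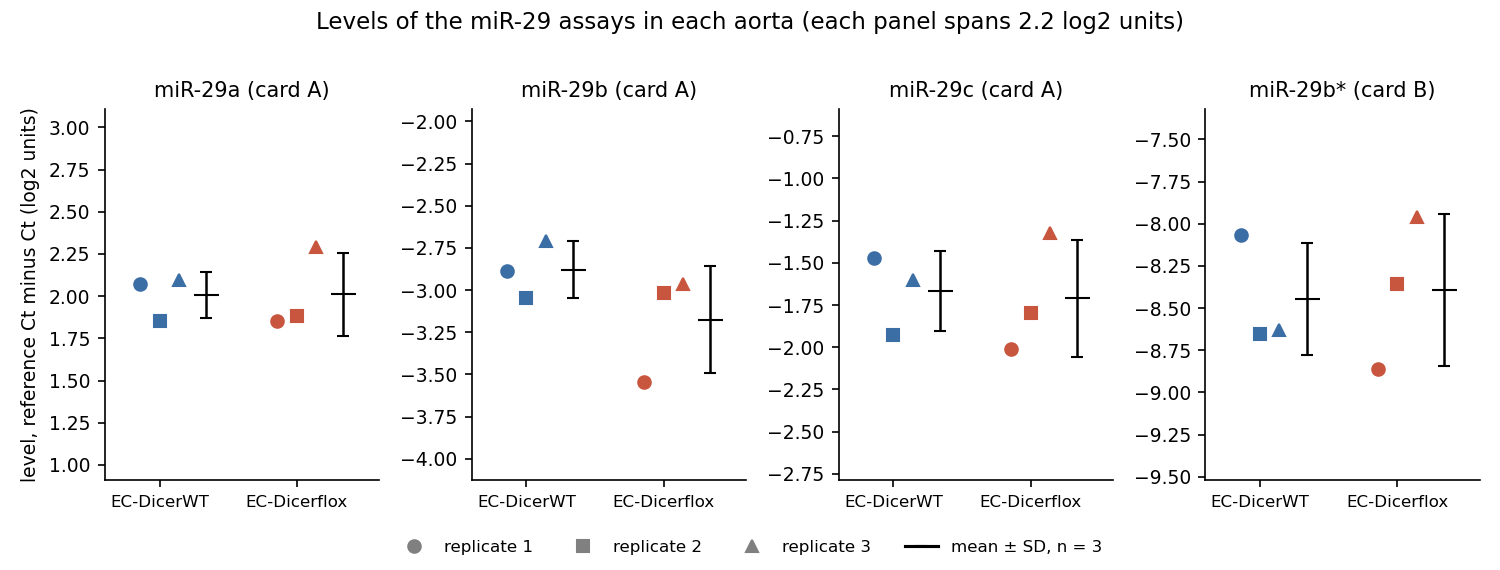
Levels of miR-29a, miR-29b, miR-29c and miR-29b* in each aorta, as reference Ct minus Ct in log2 units, with 1 symbol per replicate number and the mean ± SD of 3 aortas. The groups overlap in each panel, and EC-Dicerflox replicate 1 is the lowest aorta for miR-29b (-3.54).

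Thus 0 of the 3 members had an adjusted P under 0.05, as was the case for 0 of the 439 tested assays (0%). At an unadjusted P of 0.05 again 0 members passed, against 21 of all tested assays (4.78%). The levels of the members overlapped between the groups in each case, whereas those of 43 tested assays did not (9.79%). With 3 mice per group, the data left room for changes of each member within its own interval, which was narrowest for miR-29a.

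The members were also set against the profile as a whole. The median change of the tested assays was -0.10, and miR-29a lay 0.11 above it, miR-29c 0.06 above it and miR-29b 0.19 below it. Ordered from the most reduced assay upwards, miR-29b ranked 146th, miR-29c 247th and miR-29a 272nd of 439. When each aorta was left out in turn, the distance to the median ranged from 0.0372 to 0.17 for miR-29a, from -0.0633 to 0.15 for miR-29c and from -0.32 to -0.0692 for miR-29b. MiR-29c was below the median when replicate 3 of EC-Dicerflox (-0.0537) or replicate 2 of EC-DicerWT (-0.0633) was omitted. Without the filter on detection, over all 596 assays, the distances were -0.0040 for miR-29a, -0.0513 for miR-29c and -0.30 for miR-29b. The distances do not depend on which control RNAs form a reference shared by all assays, but the changes themselves do. With U6 alone as the reference, the median change was -0.48 and the changes were -0.38 for miR-29a, -0.42 for miR-29c and -0.67 for miR-29b.

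**Figure D2:**
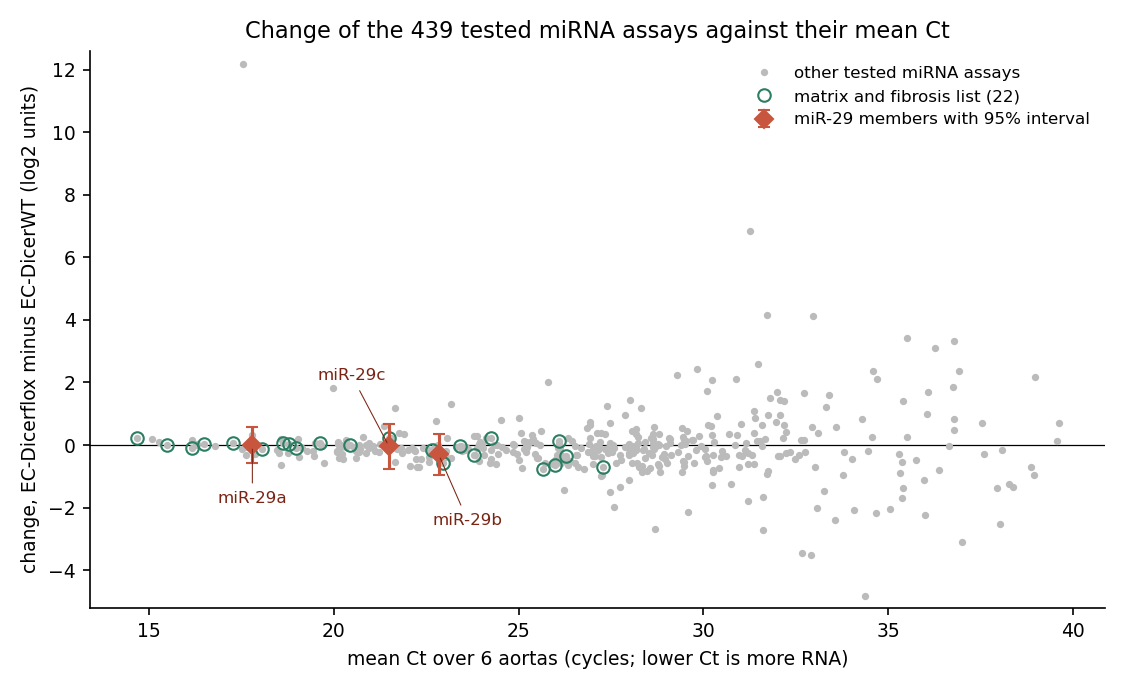
Change between EC-Dicerflox and EC-DicerWT aortas in log2 units against the mean Ct over 6 aortas in cycles, with 1 point per tested assay, the 22 assays of the matrix and fibrosis list as open circles and the miR-29 members as diamonds with 95% intervals. The intervals of all 3 members include 0, and the changes of the tested assays range from -4.81 to 12.17.

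The spread between mice was not wide for such early assays. The pooled SD within the groups was 0.20 for miR-29a, 0.26 for miR-29b and 0.30 for miR-29c, against a median of 0.29 over the 144 tested assays with a mean Ct under 25. From the smallest spread upwards, the members ranked 22nd, 57th and 75th of these assays.

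Differences between the members within an aorta need no reference RNA and address whether 1 member moved apart from the others. The order was the same in all 6 aortas, with miR-29a first, miR-29c next and miR-29b last. The Ct of miR-29c minus that of miR-29a was 3.86, 3.68 and 3.62 cycles in the EC-Dicerflox and 3.54, 3.78 and 3.70 cycles in the EC-DicerWT aortas. This spacing was kept within about 0.3 cycles over all aortas, from 3.54 to 3.86. The group difference was 0.0473 cycles (P = 0.7, exact two-sided permutation test, adjusted P of 0.7 over the 3 pairs).

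The Ct of miR-29b minus that of miR-29a was 5.40, 4.90 and 5.26 cycles in the EC-Dicerflox aortas and 4.96, 4.90 and 4.81 cycles in the EC-DicerWT aortas. EC-Dicerflox replicates 1 and 3 were wider than all EC-DicerWT aortas, and replicate 2 lay among them. The mean was 5.18 ± 0.26 cycles (SD, n = 3) against 4.89 ± 0.08 cycles (SD, n = 3), a difference of 0.30 cycles (P = 0.2, exact two-sided permutation test, adjusted P of 0.3).

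The Ct of miR-29b minus that of miR-29c was 1.53, 1.22 and 1.64 cycles in the EC-Dicerflox and 1.41, 1.12 and 1.11 cycles in the EC-DicerWT aortas. Again replicate 2 was the EC-Dicerflox aorta within the EC-DicerWT range. The means were 1.46 ± 0.22 and 1.21 ± 0.17 cycles (SD, n = 3 each), which differed by 0.25 cycles (P = 0.2, exact two-sided permutation test, adjusted P of 0.3). With 3 against 3 aortas the smallest possible P is 0.1, and a shift of miR-29b apart from its relatives was not resolved. Without EC-Dicerflox replicate 2 the difference to miR-29a was 0.44 cycles and that to miR-29c 0.37 cycles, and without EC-Dicerflox replicate 1 they were 0.19 and 0.22 cycles. In replicates 1 and 2 alone the differences were 0.22 cycles to miR-29a and 0.11 cycles to miR-29c (P of 0.67 for each, exact two-sided permutation test). With so few aortas this test cannot give a P under 0.05, whatever the values.

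**Figure D3:**
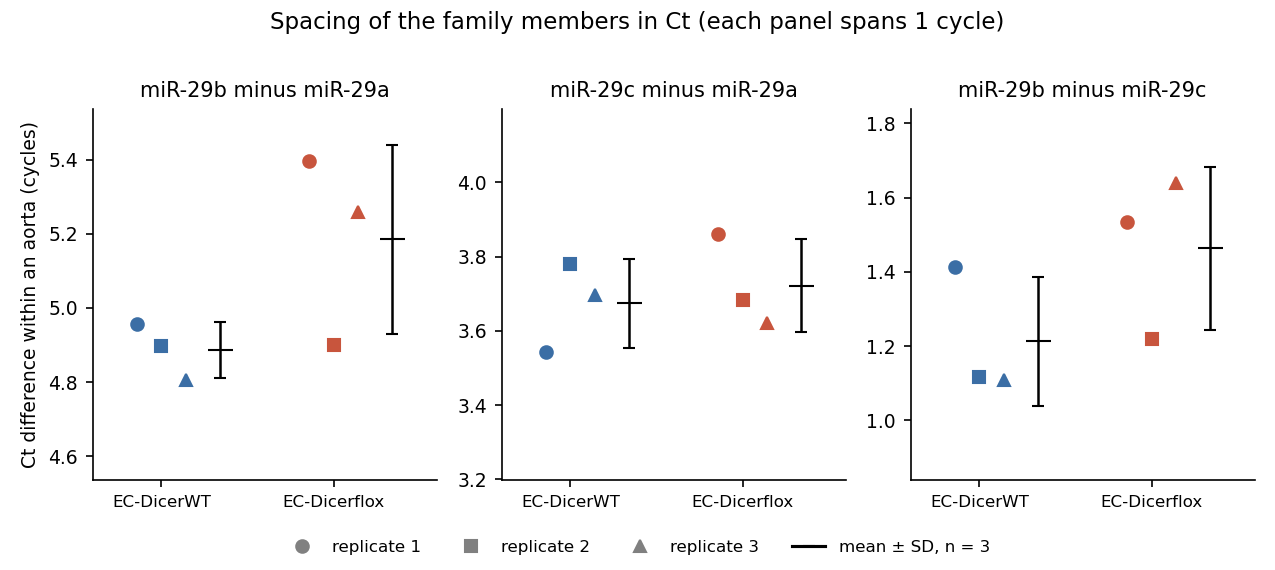
Ct differences between members within each aorta in cycles, with 1 symbol per replicate number and the mean ± SD of 3 aortas per group. The spacing of miR-29c and miR-29a stays between 3.54 and 3.86 cycles, whereas that of miR-29b and miR-29a reaches 5.40 cycles in EC-Dicerflox replicate 1.

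MiR-29b* is the passenger strand of a miR-29b hairpin, the strand that is mostly discarded when the duplex is loaded. It was measured on the second card, while the members were on the first, and the table does not say which of the 2 hairpins its sequence belongs to. The RefSeq 5p arms of both hairpins are shown, with bases 2 to 8 in capitals, since they differ in the seed position.

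mmu-miR-29b-1-5p: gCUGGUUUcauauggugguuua

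mmu-miR-29b-2-5p: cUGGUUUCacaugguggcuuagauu

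The Ct of miR-29b* was 28.30, 28.23 and 28.32 in the EC-Dicerflox aortas and 27.64, 28.10 and 28.80 in the EC-DicerWT aortas. The EC-Dicerflox values lay close together and inside the EC-DicerWT range. Its level changed by 0.0557 ± 0.34 (SE) with an interval from -0.79 to 0.90 (limma, adjusted P of 0.99), so that neither strand of miR-29b passed the test.

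The third replicates of both groups stood apart from the other aortas in a subset of the assays. In 22 of the 596 assays both were over 2 cycles higher or over 2 cycles lower than each of the other 4 aortas, against at most 9 assays for any other pair of aortas. Within them, with 1 aorta per group and no test, the level of EC-Dicerflox minus that of EC-DicerWT was 0.20 for miR-29a, 0.27 for miR-29c, 0.67 for miR-29b* and -0.26 for miR-29b. In replicates 1 and 2 the differences were -0.0939 for miR-29a, -0.20 for miR-29c, -0.25 for miR-29b* and -0.31 for miR-29b. The sign was the same in both sets of aortas for miR-29b and turned for the other 3 assays. With the third replicates as a term in the fit, the adjusted limma P was 0.90 for miR-29b and 0.99 for both other members.

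**Figure D4:**
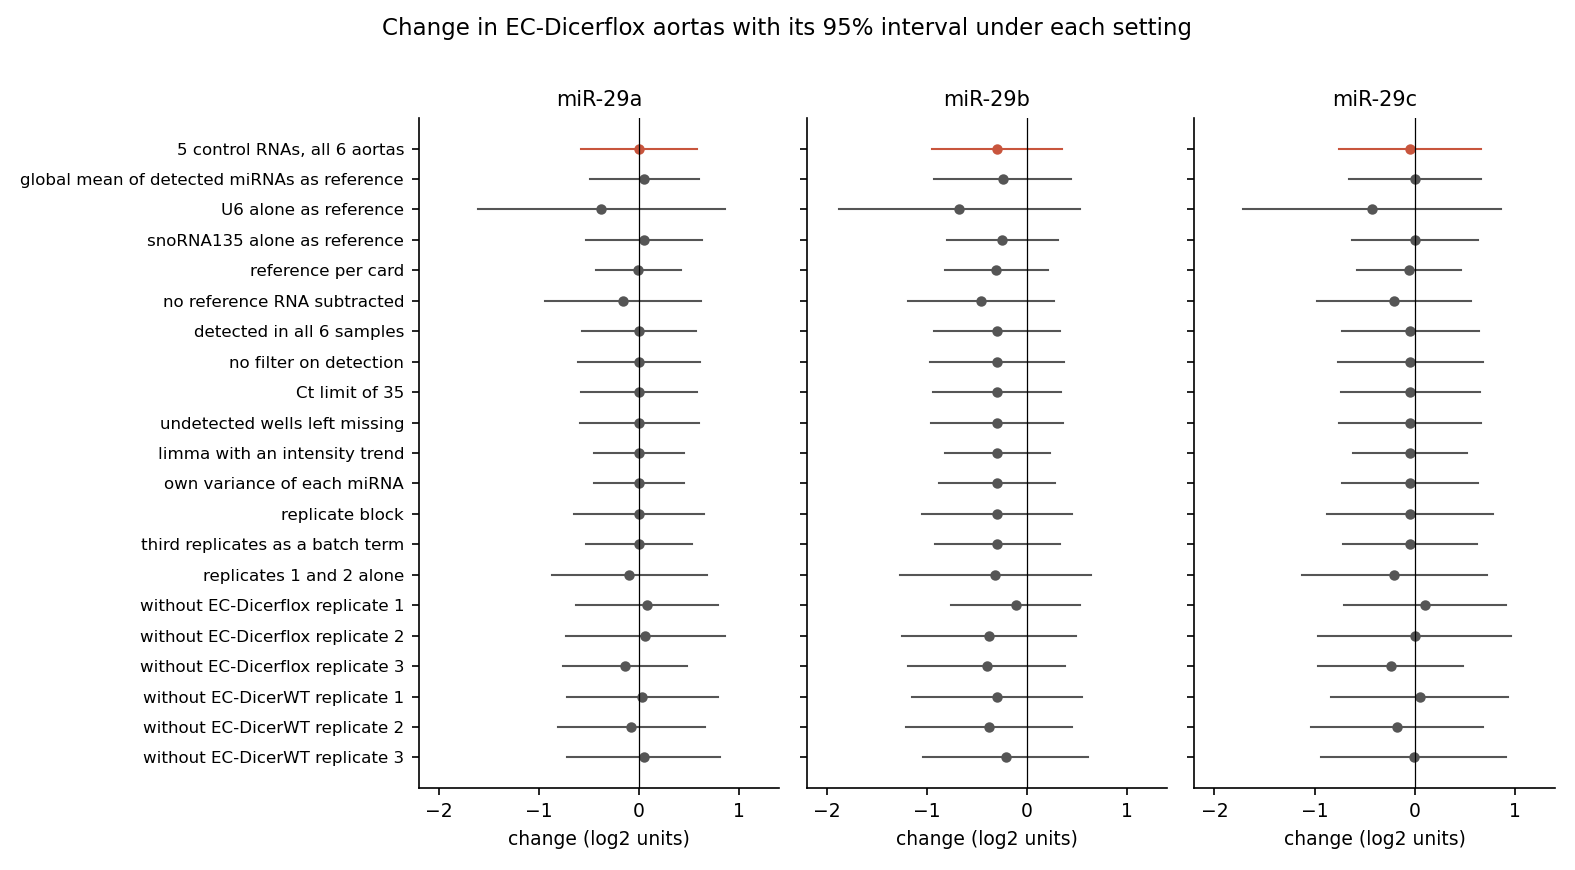
Change of each member in log2 units (points) with its 95% interval (lines) under the main setting in red and the alternative settings in grey. Each interval includes 0, and miR-29b lies below 0 throughout, from -0.67 to -0.11.

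The assays whose levels followed the members most closely were found by the root-mean-square (RMS) difference between the deviations from each assay's own mean over the 6 aortas, among the 393 other assays detected in all aortas. All levels share the reference Ct and the same RNA, and how far this alone brings assays close was not tested. The values are a description. Closest to miR-29a were miR-143, which is abundant in smooth muscle cells (0.0512 log2 units), miR-676* (0.0527) and miR-26b (0.0692). Closest to miR-29c were miR-195, a relative of miR-15 and miR-16 (0.0876), miR-26b (0.0929) and miR-143 (0.0988). Closest to miR-29b were let-7e (0.0993), miR-127 (0.11) and miR-350 (0.11). The median distances were 0.43 for miR-29a, 0.46 for miR-29c and 0.44 for miR-29b.

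Within the family, miR-29c was the 11th closest assay to miR-29a, at 0.10 log2 units. Both come from different chromosomes but differ by C10U alone, and how far their assays tell them apart was not tested. MiR-29b, which shares a locus with miR-29a and with miR-29c, was the 76th closest to miR-29a at 0.21 and the 58th closest to miR-29c at 0.20. Counted from miR-29b, miR-29c was the 34th and miR-29a the 42nd closest assay. The passenger strand miR-29b* was the 25th closest to miR-29c at 0.16, the 87th closest to miR-29a at 0.23 and the 108th closest to miR-29b at 0.30.

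Other miRNAs linked to collagen deposition, transforming growth factor-β signalling or fibrosis were taken as a list of 22, all of which were tested. Without regard to a test, 12 had a change below 0 and 10 a change above 0, and 0 had an unadjusted or adjusted limma P under 0.05. Of all 439 tested assays, 271 had a change below 0 and 168 a change above 0. Among these 439, 21 had an unadjusted (4.78%) and 0 an adjusted limma P under 0.05. The median change of the list was -0.0161, against -0.10 over all 439 tested assays. The changes of the list ranged from -0.76 for miR-200a to 0.23 for miR-133b.

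MiR-21, which promotes fibrosis in the heart, had levels of 0.45, 0.76 and 1.14 in EC-Dicerflox and of 0.93, 0.86 and 0.88 in EC-DicerWT aortas. The EC-DicerWT values lay inside the wider EC-Dicerflox range, and the change was -0.10 ± 0.25 (SE). MiR-133a and miR-30c, both of which repress connective tissue growth factor, changed by 0.07 ± 0.22 and 0.02 ± 0.25 (SE). MiR-143 and miR-145, which maintain the contractile state of smooth muscle cells, changed by -0.0960 ± 0.23 and 0.21 ± 0.31 (SE). The adjusted limma P was 0.99 for each of these 5 miRNAs.

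Markers of the cell types in the vessel wall showed where the tissue stood. The smooth muscle markers miR-143 and miR-145 had a mean level from 4.17 to 4.79 in EC-Dicerflox and from 4.15 to 4.59 in EC-DicerWT aortas. For the endothelial markers, both strands of miR-126, the mean level ranged from 0.16 to 1.05 and from 0.39 to 0.81. The 4 leukocyte markers ranged from -2.59 to -1.87 and from -2.32 to -1.67, 2 of 3 erythrocyte markers were on the cards under the names searched, and 4 of 6 striated muscle markers were tested. Of these 14 tested marker assays, 1 had an unadjusted P under 0.05, against 21 of all 439 tested assays (4.78%). It was the striated muscle miR-208 with a change of -1.65 (limma, unadjusted P of 0.0240, adjusted P of 0.98). The levels of miR-208 did not overlap between the groups, at a late mean Ct of 31.6. The mean levels of each marker list overlapped between the groups, and their part in the values of the family was not tested. Dicer1 mRNA is not an assay of these cards, and the deletion was therefore not examined here.

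For orientation, miR-103, a miRNA the study followed in ECs, had levels of -3.04, -2.95 and -2.55 in EC-Dicerflox and of -2.16, -2.35 and -1.95 in EC-DicerWT aortas. Unlike those of each miR-29 member, these levels did not overlap between the groups, as for 43 of the 439 tested assays (9.79%). The change was -0.70 ± 0.25 (SE, limma, unadjusted P of 0.034, adjusted P of 0.98). MiR-126-3p, abundant in ECs, changed by -0.13 ± 0.32 (SE, limma, adjusted P of 0.99). Whether the members differed from these miRNAs in their response was not tested.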

How the data were processed

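Per the study's methods, total RNA was reverse transcribed and preamplified with a rodent primer pool set before loading on TaqMan array cards. The authors deposited raw Ct values from 6 aortas, 1 column per mouse, without normalisation. How baseline and threshold were set is not given in the sources used here. Ct values carry no read depth, and precision is set by having 3 mice per group. Groups and replicate numbers came from the labels.

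The members and lists were chosen with earlier results of these data known. As the reference served the average Ct of the control RNAs U6, U87, Y1, snoRNA135 and snoRNA202 after averaging the cards. Assays with a Ct under 40 in at least 3 of 6 aortas were tested, with undetected wells kept at 40. Levels on the log2 scale, computed from the deposited Ct values, were compared with limma 3.58.1 in R 4.3.3 (lmFit and eBayes, two-sided, no replicate block), with Benjamini-Hochberg adjustment over 439 assays, and the procedure was tested on simulated data. A P-value sets the difference between the groups against the spread between these mice, which limma moderates with the variance of all tested assays. Ct differences between members were compared by exact permutation tests. Named were the members, their asterisk assay, the 3 closest assays per member, listed miRNAs fixed by name or with an unadjusted P under 0.05, miR-103 and miR-126-3p. MiR-208 was named after its values were seen. Alternatives covered the reference, detection, variance model, replicate block, the third replicates (as a batch term or left out) and leaving out each aorta. Raw Ct without a reference was added after seeing the data.

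Samples with the same replicate number deviated together with correlations across the tested assays of 0.15, -0.0620 and 0.31 for replicates 1, 2 and 3. A shared number was therefore not treated as a pair.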

Additional observations from a re-analysis of the deposited data

Results flagged for a closer look

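A plant miRNA assay, which serves as a negative control and enters no comparison, had a Ct of 39.776 on the first card in EC-Dicerflox replicate 1. It was undetected in all other aortas of both groups. The highest Ct of a miR-29 member was 23.32.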

How the results depend on the processing

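In each of the 20 alternative fits, 0 members had an adjusted or unadjusted limma P under 0.05. Of all tested assays, those with an unadjusted limma P under 0.05 ranged from 8 of 434 to 28 of 439. The fewest came without EC-Dicerflox replicate 2, the most when the fit held a term for the third replicates. In the latter, 1 of 439 assays had an adjusted limma P under 0.05, as had 1 of 432 in replicates 1 and 2 alone. The other fits had 0. With so few passing, 0 of 3 members does not set the family apart. MiR-29b was lower in EC-Dicerflox aortas in each fit, from -0.67 to -0.11. The signs of the smaller changes were not fixed. MiR-29a was -0.38 with U6 alone, -0.0065 with a reference per card, -0.16 with no reference RNA subtracted (added after the data were seen) and -0.0939 in replicates 1 and 2. MiR-29c was 0.0085 with the global mean of the detected miRNAs and 0.0040 with snoRNA135 alone. Leaving out each aorta gave changes from -0.14 to 0.0813 for miR-29a, from -0.40 to -0.11 for miR-29b and from -0.24 to 0.10 for miR-29c. In these fits miR-29a was below 0 when EC-Dicerflox replicate 3 (-0.14) or EC-DicerWT replicate 2 (-0.0755) was omitted, and miR-29c was above 0 when replicate 1 of EC-Dicerflox (0.10) or of EC-DicerWT (0.0528) was. The Ct difference of miR-29c and miR-29a ranged from -0.0227 to 0.10 cycles when each aorta was left out, with -0.0175 without EC-DicerWT replicate 1. Those of miR-29b to miR-29a and to miR-29c stayed above 0, from 0.19 to 0.44 and from 0.16 to 0.37 cycles, and were 0.22 and 0.11 cycles in replicates 1 and 2 alone. The reference Ct difference was -0.22 with U6 alone and ranged from -0.0724 to 0.39 cycles when each aorta was left out. For each of these reversals the cause was not tested. Under a fit with a replicate block the changes were 0.0027, -0.30 and -0.0447 for miR-29a, miR-29b and miR-29c, with adjusted limma P values of 0.99, 0.88 and 0.99, so the block changed no call.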
